A study of Mus musculus with 8 samples.

Results

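The 10 genes described here serve cystine import, glutathione synthesis and antioxidant defence: Slc7a11, Slc3a2, Gclc, Gclm, Gss, Gpx1, Gpx4, Nfe2l2, Hmox1 and Nqo1. They were picked by name from the 38924 genes of each count table, and all 10 were found by gene identifier. Slc7a11 was picked because it stood higher in every dopamine library than in the serotonin libraries, so the levels of the 10 genes in dopamine and serotonin libraries are given as a description, with no test. Differences among the dopamine libraries played no part in the choice and were tested.

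The libraries hold RNA bound to tagged ribosomes and pulled down from embryonic mouse brain. The bacTRAP method puts a tag on ribosomes of cells that use a chosen gene, here the dopamine transporter gene Slc6a3 or the serotonin transporter gene Slc6a4, per the series' design text. The dopamine libraries came from midbrain neurons and were labelled Lateral (n = 1), Medial (n = 1), datL (n = 2) and datM (n = 2). The serotonin libraries came from hindbrain neurons (n = 2). All 8 libraries carry the same line description, which names the Slc6a3 line JD1640, the serotonin libraries included, so groups were taken from the titles. Per the labels, dissection took place on embryonic day 15, and tissue called day 18 had spent 3 further days in culture. The file headers mark Lateral and Medial with E18 and place them in lane 8 with the serotonin libraries, and place datL and datM in a run named for October. The labels do not say whether libraries came from separate animals, and they give no strain or mutant allele beyond the line, and no treatment.

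Cystine, the oxidised dimer of cysteine, enters cells through the antiporter called system xc-, in exchange for glutamate. Slc7a11 encodes its transport subunit, and Slc3a2 encodes the heavy chain that carries this and several other amino acid transporters to the membrane. Inside the cell cystine is reduced to cysteine. Glutamate-cysteine ligase, made of a catalytic subunit (Gclc) and a modifier subunit (Gclm), joins cysteine to glutamate, and glutathione synthetase (Gss) adds glycine. The selenium enzymes GPX1 and GPX4 use glutathione to remove hydrogen peroxide and lipid peroxides. NRF2, the product of Nfe2l2, drives many of these genes through the antioxidant response element, and heme oxygenase 1 (Hmox1) and the quinone reductase NQO1 (Nqo1) are classical NRF2 targets. Dopamine neurons are known for the oxidative load that dopamine breakdown and pacemaking place on them.

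To show which members carry the DNA letters that NRF2 and the stress factor ATF4 are known to bind, the RefSeq promoter windows (GRCm38.p6, from 250 bases before to 50 bases after the start of transcription) were searched on both strands. Of the 10 genes, 8 had a window. The antioxidant response element core TGACNNNGC was found for Gclm and Nfe2l2, and 14.0% of all 27025 genes with a window held it. The amino acid response element TGATGNAA was found for Slc7a11 alone among the members, on both strands, and 4.51% of all genes with a window held it. The stretches below read along the gene's own strand, with the matched letters in capitals. The first Slc7a11 stretch lies at chr3:50443662-50443689 and the second at chr3:50443643-50443670, both on the minus strand, and they share bases. The Gclm stretch lies at chr3:122245413-122245441 on the plus strand, and the Nfe2l2 stretch at chr2:75704885-75704913 on the minus strand.
Slc7a11, first match: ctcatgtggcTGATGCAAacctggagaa
Slc7a11, second match: cctggagaatTTGCATCAtcatgcagcc
Gclm: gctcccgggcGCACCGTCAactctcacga
Nfe2l2: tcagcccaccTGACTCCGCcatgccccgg
A match of letters is not evidence of binding, and the absence of one concerns this window only.

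The libraries held 22417739 to 33216710 counts each. The labelled neuron types were checked against their transporters: Slc6a3 stood at 739.5 CPM (a gene's counts scaled to a common library total) in Lateral, 129.5 in Medial, 129.4 and 229.1 in datL, 31.9 and 176.0 in datM, and 0.679 and 0.171 in the serotonin libraries. Slc6a4 stood at 5.27 CPM in Lateral, 3.93 in Medial, 0 in the 4 datL and datM libraries, and 1196 and 1075 in the serotonin libraries. The 11 dopamine neuron markers summed to 2992 CPM in Lateral, 2584 in Medial, 474.8 and 1154 in datL and 2488 and 1801 in datM, against 1271 and 1081 CPM in the serotonin libraries, so datL replicate 1 lay below both serotonin libraries (Ddc and Slc18a2 stand on both marker lists). The 9 serotonin neuron markers summed to 236.4 to 545.2 CPM in dopamine libraries and to 6327 and 5339 CPM in serotonin libraries. For Lateral and Medial against datL and datM, 9 of 9 serotonin neuron markers had a positive log2 fold change, 5 of them at an unadjusted p under 0.05, where 6.07% of all genes were. Paired libraries differed widely: of the genes with at least 100 counts in 1 library of a pair, 12.3% had 0 counts in the other library of the datL pair, 11.8% in the datM pair and 1.06% in the serotonin pair. Since the RNA comes from bulk pull-downs, fewer cells of a type and less RNA per cell cannot be told apart.

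Slc7a11 (ENSMUSG00000027737.5, chromosome 3, 50364936 to 50443613, mm10) was high in every dopamine library and close to absent in serotonin libraries. It stood at 353.2 CPM in Lateral, 148.1 in Medial, 484.3 and 157.6 in datL and 521.7 and 157.1 in datM, against 2.44 and 3.57 CPM in the serotonin libraries. These values rest on 3321 to 14215 reads in each dopamine library and on 72 and 104 reads in the serotonin libraries. The groups did not overlap: the lowest dopamine library, Medial, lay far above both serotonin libraries. The means were 303.7 ± 173.0 CPM (SD, n = 6) in dopamine and 3.01 ± 0.795 CPM (SD, n = 2) in serotonin libraries, a ratio of 101. The fitted log2 fold change was 6.82 and ranged from 6.49 to 7.04 over the other settings tried. It was the 188th highest of 13806 genes. Within lane 8, the lane number that the headers give for Lateral, Medial and serotonin libraries, the log2 fold change was 6.33 (5.49 to 6.87 over the other settings). A lane number alone does not show that these libraries shared a run. Only Lateral and Medial among them carry the E18 mark, so the mark and neuron type cannot be told apart within lane 8.

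Among the dopamine groups Slc7a11 had no order that held beyond the spread. Lateral and Medial averaged 250.7 ± 145.0 CPM (SD, n = 2), datL 320.9 ± 231.1 (SD, n = 2) and datM 339.4 ± 257.8 (SD, n = 2). The log2 fold change of datL over datM was 0.0055 (SE 0.78, edgeR adjusted p = 1), and its sign turned in some other settings. The log2 fold change of Lateral and Medial over datL and datM was -0.71 (SE 0.69, edgeR adjusted p = 0.973).

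**Figure D1:**
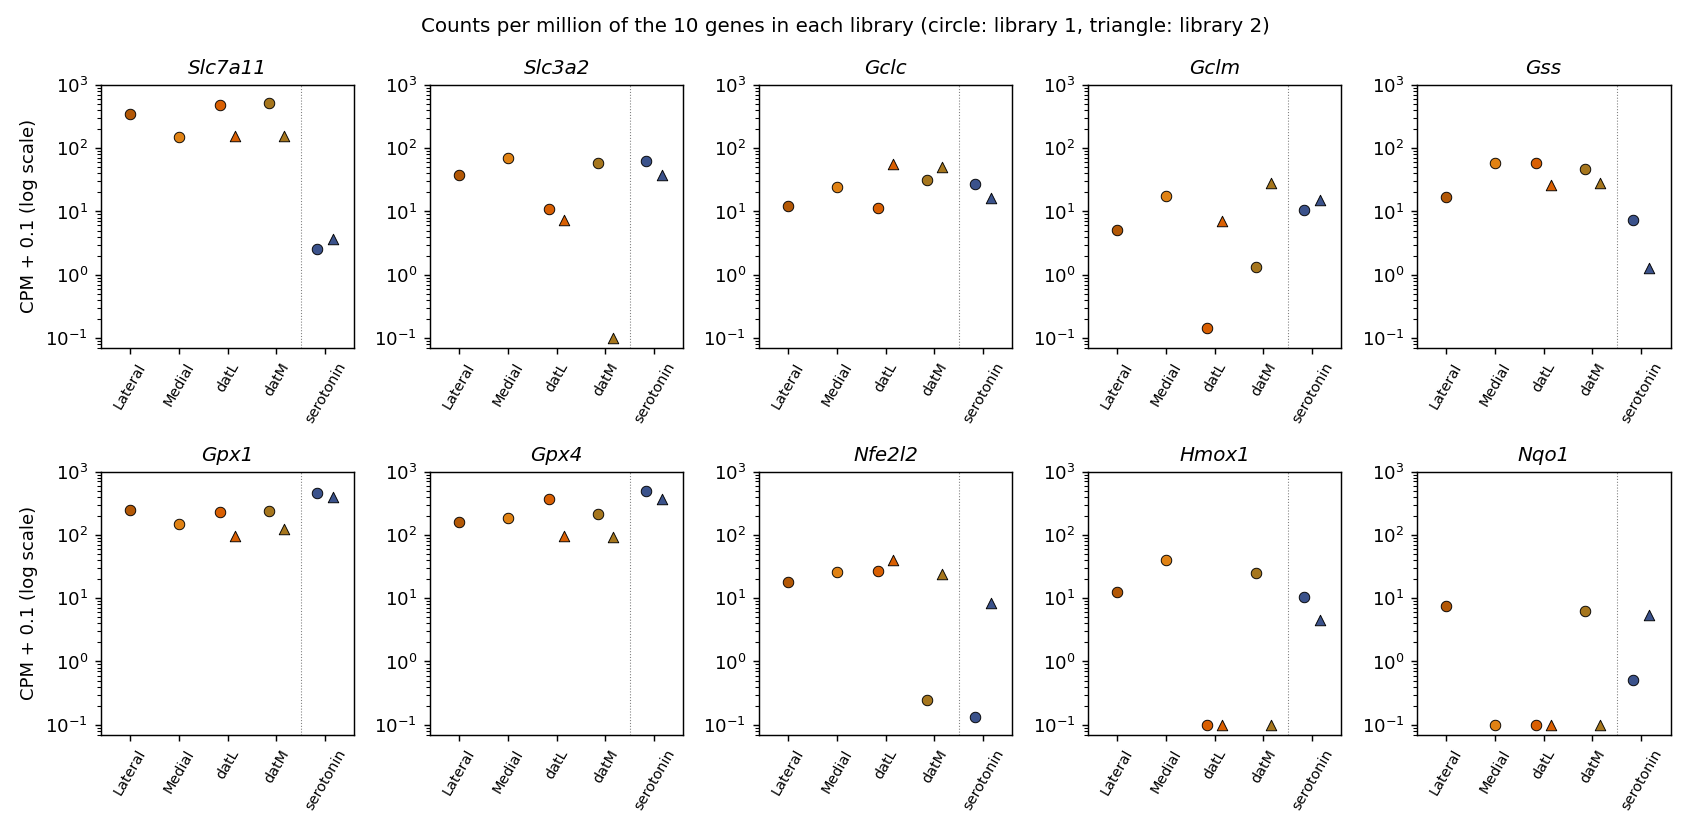
CPM plus 0.1 (log axis) of the 10 genes in each library, with the dopamine groups Lateral, Medial, datL and datM left of the dotted line and serotonin right of it; circles are library 1 and triangles library 2, and a point at 0.1 has 0 counts. The 6 dopamine points of Slc7a11 sit between 148.1 and 521.7 CPM, above the serotonin points at 2.44 and 3.57 CPM.

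Slc3a2, the heavy chain, did not share this pattern. It stood at 37.4 CPM in Lateral, 70.6 in Medial, 10.8 and 7.36 in datL and 59.1 and 0 in datM, against 63.4 and 37.1 CPM in the serotonin libraries. The dopamine libraries ranged below, between and above the serotonin libraries, and the 0 of datM replicate 2 allows up to 0.125 CPM at its depth of 24038427 counts. The means were 30.9 ± 29.4 CPM (SD, n = 6) in dopamine and 50.2 ± 18.6 CPM (SD, n = 2) in serotonin libraries. All intervals and limits of this kind cover counting error only, since copies made by PCR were not marked.

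Per length, in TPM (reads divided by gene length and scaled to a common sum), the balance of these subunits differed between the neuron types. The Slc7a11 level was 2.49 times the Slc3a2 level in Lateral, 0.552 times in Medial, 11.8 and 5.63 times in datL and 2.32 times in datM replicate 1, where both genes were counted. In the serotonin libraries the Slc3a2 level was 98.7 and 39.5 times that of Slc7a11. Medial was the dopamine library in which Slc3a2 was the higher of the pair.

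**Figure D2:**
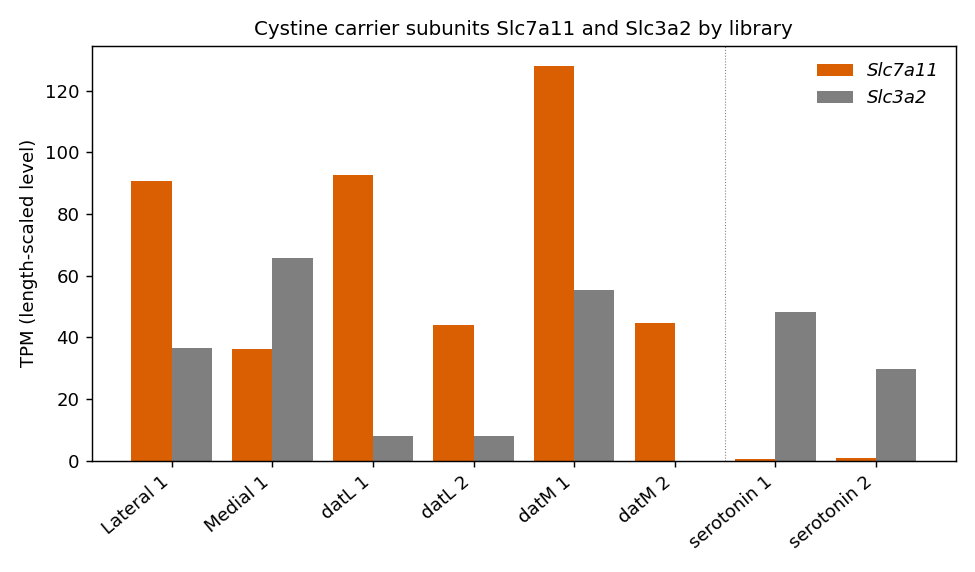
Length-scaled level (TPM, linear axis from 0) of Slc7a11 and Slc3a2 in each library, dopamine libraries left of the dotted line and serotonin libraries right of it. Slc7a11 stood at 36.2 to 128.1 TPM in dopamine libraries and at 0.488 and 0.753 TPM in serotonin libraries, while Slc3a2 stood at 0 to 65.5 TPM in dopamine libraries and at 48.1 and 29.7 TPM in serotonin libraries.

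Of the synthesis genes, Gss was higher in every dopamine library and the ligase subunits were not. Gss (ENSMUSG00000027610.11, chromosome 2, 155563181 to 155592810) stood at 17.1 CPM in Lateral, 59.0 in Medial, 58.1 and 26.3 in datL and 47.0 and 27.8 in datM, against 7.26 and 1.20 CPM in the serotonin libraries. The groups did not overlap. The means were 39.2 ± 17.9 CPM (SD, n = 6) in dopamine and 4.23 ± 4.29 CPM (SD, n = 2) in serotonin libraries, with a log2 fold change of 3.35 (2.49 to 5.10 over the other settings) and of 3.04 within lane 8 (2.01 to 4.87). Of the exon bases of Gss, 15.4% are shared with Acss2 and the antisense genes Gssos1 and Gssos2 on the other strand, and counting took no account of strand. How many of its reads fall in the shared bases was not measured, so its value is uncertain.

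Gclc, the catalytic subunit, stood at 12.2 CPM in Lateral, 23.9 in Medial, 11.1 and 55.6 in datL and 31.3 and 50.2 in datM, against 26.6 and 16.3 CPM in the serotonin libraries. Dopamine libraries lay on both sides of the serotonin libraries. Gclm, the modifier subunit, stood at 5.06 CPM in Lateral, 17.3 in Medial, 0.0441 and 7.02 in datL and 1.21 and 28.5 in datM, against 10.3 and 15.2 CPM in the serotonin libraries. Its lowest dopamine value was 1 read in datL replicate 1. Per length, the Gclc level exceeded that of Gclm in all 8 libraries, by 2.23 times in Medial to 408 times in datL replicate 1 among the dopamine libraries, and by 4.19 and 1.74 times in the serotonin libraries. Of the exon bases of Gclm, 5.34% are shared with other genes.

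Both glutathione peroxidase genes were lower in dopamine libraries. Gpx1 (ENSMUSG00000063856.6, chromosome 9, 108339080 to 108340338) stood at 243.4 CPM in Lateral, 147.9 in Medial, 228.1 and 96.9 in datL and 237.5 and 124.3 in datM, against 466.8 and 391.5 CPM in the serotonin libraries. No dopamine library reached the lower serotonin library. The means were 179.7 ± 64.3 CPM (SD, n = 6) in dopamine and 429.2 ± 53.2 CPM (SD, n = 2) in serotonin libraries, and the log2 fold change was -1.12 (-1.31 to -0.999 over the other settings) and -1.20 within lane 8 (-1.67 to -0.83). Gpx4 (ENSMUSG00000075706.4, chromosome 10, 80047166 to 80056439), the enzyme that repairs lipid peroxides in membranes, stood at 161.5 CPM in Lateral, 187.5 in Medial, 376.3 and 96.0 in datL and 216.4 and 93.6 in datM, against 486.2 and 373.3 CPM in the serotonin libraries. Only datL replicate 1 reached the lower serotonin library, and 5 of 6 dopamine libraries lay below both by CPM, while per length all 6 did. The log2 fold change of Gpx4 was -1.04 (-1.47 to -0.89 over the other settings) and -1.39 within lane 8 (-1.58 to -1.18). Per length, Gpx1 and Gpx4 were the most abundant of the 10 genes in all 8 libraries. They made up 75.2% to 86.8% of the summed TPM of the 10 genes in the dopamine libraries, and 95.1% and 95.5% in the serotonin libraries. Slc7a11 made up 3.95% to 10.2% of that sum in the dopamine libraries, against 0.0283% and 0.0511% in the serotonin libraries.

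Nfe2l2, which encodes NRF2, stood at 17.7 CPM in Lateral, 26.1 in Medial, 26.6 and 40.2 in datL and 0.147 and 24.0 in datM, against 0.0339 and 8.16 CPM in the serotonin libraries. In 5 of 6 dopamine libraries it was higher than in both serotonin libraries, and the exception, datM replicate 1, held 4 reads. The serotonin libraries themselves held 1 and 238 reads, so the ratio of means, 5.48, rests on libraries that differ by more than that within a group. The NRF2 targets among the members were counted in some libraries and not in others. Hmox1 stood at 12.3 CPM in Lateral, 40.1 in Medial, 0 and 0 in datL and 24.8 and 0 in datM, against 10.3 and 4.49 CPM in the serotonin libraries. Nqo1 stood at 7.32 CPM in Lateral, 0 in Medial, 0 and 0 in datL and 6.28 and 0 in datM, against 0.407 and 5.32 CPM in the serotonin libraries. A 0 in these libraries allows up to 0.114 to 0.134 CPM. Among the dopamine libraries, those with Nqo1 reads also had Hmox1 reads, while Medial had Hmox1 reads only. Both genes had reads in both serotonin libraries.

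Counted over the members, 5 of 10 had a positive log2 fold change for dopamine over serotonin and 5 a negative one, with a median of 0.23 beside 0.26 for all 13806 genes tested. The sign of Hmox1 (0.84) turned with limma-voom (-3.22), with the replicate block (-6.42) and with 5 groups (-1.67), and that of Nqo1 (-0.21) turned when some single libraries were left out (up to 2.52, without serotonin replicate 2). All 10 passed the expression filter. Slc7a11 and Gss lay above both serotonin libraries in every dopamine library, where 3.06% of all genes tested did, and Gpx1 lay below them, where 8.59% did. Since the members were chosen on this contrast, nothing is read from these counts. Within lane 8, 4 members lay above (Slc7a11, Gss, Nfe2l2 and Hmox1) and 2 below (Gpx1 and Gpx4), where 25.0% and 24.6% of 13400 genes did.

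Astrocytes and other cell types also make Slc7a11, so markers of other cells were set beside it. The 11 astrocyte markers summed to 2461 CPM in Lateral, 3426 in Medial, 3583 and 1989 in datL and 3627 and 2491 in datM, against 774.7 and 1081 CPM in the serotonin libraries, and 3 of 11 were higher in every dopamine library, where 3.06% of all genes tested were. Within lane 8, 10 of 10 tested astrocyte markers lay above both serotonin libraries in Lateral and in Medial, where 25.0% of all genes tested did. Over all 6 dopamine libraries, 10 of 10 tested astrocyte markers had a positive log2 fold change, with a median of 2.16 beside 0.26 over all genes. Of the 11, Gfap had 0 counts in every datL and datM library, and S100b had 0 in both datM libraries. Astrocytes were not told apart from radial glia. The 8 red blood cell markers summed to 102.4 CPM in Lateral, 237.0 in Medial, 753.8 and 218.1 in datL and 750.5 and 278.5 in datM, against 31.5 and 52.5 CPM in the serotonin libraries, and 4 of 8 were higher in every dopamine library, where 3.06% of all genes tested were. The 10 radial glia and progenitor markers summed to 363.3 to 2025 CPM in dopamine libraries and to 373.5 and 497.7 CPM in serotonin libraries. Meningeal and fibroblast markers summed to 0.485 to 61.7 CPM in dopamine libraries and to 2.14 and 41.5 CPM in serotonin libraries. Microglia and macrophage markers, of a cell type that makes Hmox1, summed to 0 to 23.2 CPM in dopamine libraries and to 1.90 and 1.92 CPM in serotonin libraries, with P2ry12, Csf1r, Trem2 and Cd163 at 0 in all 8 libraries. Endothelial markers summed to 0.550 to 104.6 CPM in dopamine libraries and to 7.60 and 9.26 CPM in serotonin libraries. Oligodendrocyte lineage markers summed to 37.0 to 418.4 CPM in dopamine libraries and to 21.4 and 36.5 CPM in serotonin libraries. These sums did not overlap, by a narrow margin. Within lane 8, 5 of 7 of these markers lay above both serotonin libraries, where 25.0% of all genes tested did. Neuron markers summed to 11985 to 18258 CPM in dopamine libraries and to 14193 and 14536 CPM in serotonin libraries. The part of the astrocyte and red blood cell differences in the levels of the 10 genes was not tested.

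**Figure D3:**
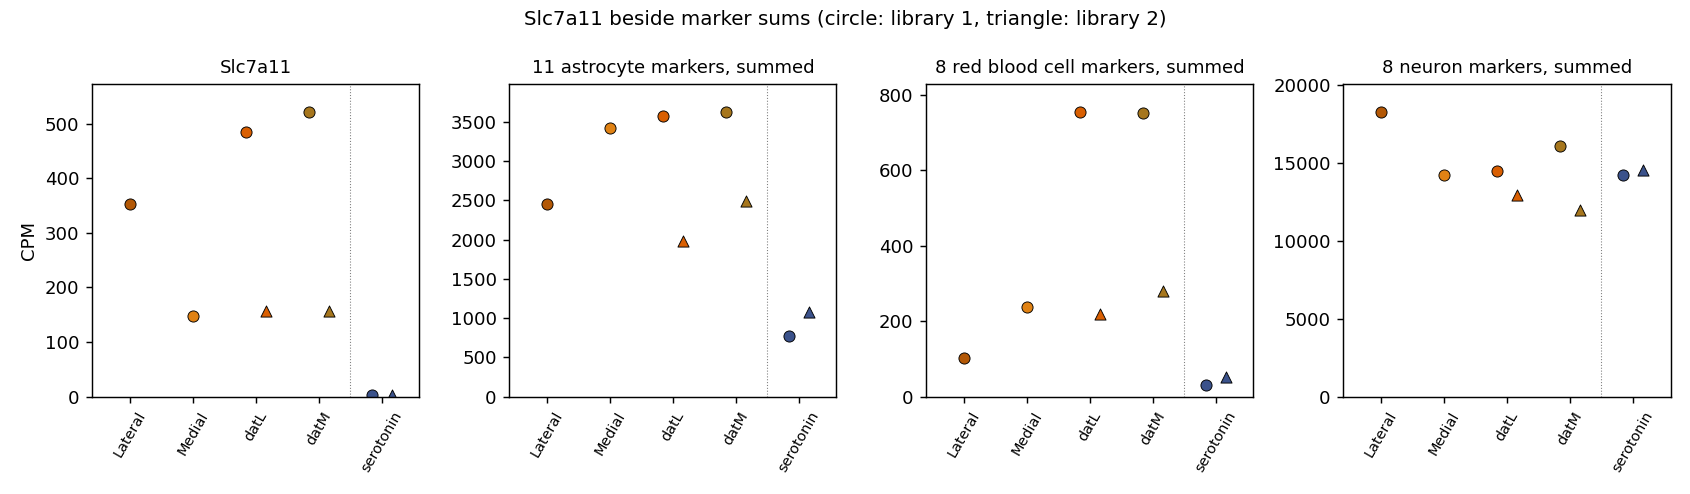
CPM (linear axes from 0) of Slc7a11 and of 3 summed marker lists in each library, dopamine groups left of the dotted line and serotonin right of it; circles are library 1 and triangles library 2. The astrocyte sum is 1989 to 3627 CPM in dopamine libraries and 774.7 and 1081 CPM in serotonin libraries.

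The test of datL against datM asked whether the 10 genes differed between these dopamine groups. By edgeR's quasi-likelihood test with Benjamini-Hochberg adjustment over 15177 genes, 0 of 10 members passed 0.05, as did 0% of all genes, and 1 of 10 had an unadjusted p under 0.05, where 6.92% of all genes did (3.40% higher and 3.52% lower). DESeq2 called 1609 genes and limma-voom 243 in this comparison. The member under 0.05 unadjusted was Hmox1, whose 677 reads all lay in datM replicate 1. Nfe2l2 was the member whose groups did not overlap, at 26.6 and 40.2 CPM in datL against 0.147 and 24.0 CPM in datM, where 11.3% of all genes lay above in the same way (log2 fold change 1.56 with SE 2.59, edgeR adjusted p = 1). Gpx4 averaged 236.2 ± 198.2 CPM in datL and 155.0 ± 86.8 CPM in datM (SD, n = 2 each, log2 fold change 0.70 with SE 0.76, edgeR adjusted p = 0.917). Gclm averaged 3.53 ± 4.93 CPM in datL and 14.9 ± 19.3 CPM in datM (SD, n = 2 each, log2 fold change -2.0 with SE 2.58, edgeR adjusted p = 0.954). For every member the libraries of 1 group differed by as much as the groups did, or by more.

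Lateral and Medial were then set against datL and datM. Sequencing run and the E18 mark follow the same split, so age in vitro, run and group cannot be told apart. Again 0 of 10 members passed, where 0.00659% of all genes did (1 gene, Tph2, log2 fold change 11.18 with SE 0.71, edgeR adjusted p = 0.045), and 0 of 10 had an unadjusted p under 0.05, where 7.53% did (6.07% higher and 1.46% lower). DESeq2 called 907 genes here and limma-voom 0. No member's groups were free of overlap, where 12.7% of all genes lay above and 2.52% below. Slc3a2 averaged 54.0 ± 23.5 CPM in Lateral and Medial (SD, n = 2) and 19.3 ± 26.9 CPM in datL and datM (SD, n = 4, log2 fold change 1.47 with SE 1.91, edgeR adjusted p = 1). Gclc averaged 18.03 ± 8.25 CPM in Lateral and Medial (SD, n = 2) and 37.0 ± 20.2 CPM in datL and datM (SD, n = 4, log2 fold change -1.27 with SE 1.22, edgeR adjusted p = 0.962). Hmox1 averaged 26.2 ± 19.7 CPM in Lateral and Medial (SD, n = 2) and 6.21 ± 12.4 CPM in datL and datM (SD, n = 4), with an edgeR adjusted p of 0.668.

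For Lateral against Medial, single libraries, no test was made. Slc7a11 was 2.38 times and Gpx1 1.65 times as high in Lateral as in Medial by CPM. The ratio lay below 1 for Slc3a2, Gclc, Gclm, Gss, Gpx4, Nfe2l2 and Hmox1, from 0.290 for Gss to 0.861 for Gpx4. Nqo1 had 243 reads in Lateral and 0 in Medial. In the datL and datM pairs Slc7a11 differed by 3.07 and 3.32 times between the libraries of a pair, so the ratio of 2.38 is smaller than the spread between libraries of the same label.

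Around the 10 members, 138 other genes of the same pathways were followed in 11 lists, each taken whole. Between dopamine and serotonin libraries 128 of them were abundant enough to test, and 0 passed 0.05 after adjustment over all genes by edgeR, as did 0% of all genes tested (DESeq2 called 124 genes and limma-voom 14). At an unadjusted p under 0.05, 9 were higher in dopamine libraries (7.03%, where 2.80% of all genes were) and 1 was lower (0.781%, where 1.90% were), beside 4.69% of all genes in either direction. Every dopamine library lay above both serotonin libraries at 9 of them (7.03%, where 3.06% of all genes did) and below at 14 (10.9%, where 8.59% of all genes did). The median log2 fold change was 0.07 beside 0.26 over all genes, and it did not move when the 1 gene without serotonin reads, Cth, was placed at its counting bound.

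The lists around sulfur amino acids had mostly positive fold changes. In the list of transsulfuration and the methionine cycle 8 of 9 tested genes were positive, with a median log2 fold change of 1.55 beside 0.26 over all genes, and 0 passed. Only Mat2a lay above both serotonin libraries in every dopamine library (11.1% of the list, where 3.06% of all genes did). It was also the only one with an unadjusted edgeR p under 0.05. Mat2a, which makes the methyl donor S-adenosylmethionine, averaged 315.6 ± 131.0 CPM (SD, n = 6) in dopamine and 119.8 ± 4.26 CPM (SD, n = 2) in serotonin libraries, a log2 fold change of 1.55 with an SE of 0.54 (edgeR adjusted p = 0.761). Among the cysteine and glutamate carriers 7 of 9 were positive, with a median of 0.92, and 0 passed. The smallest p there was that of Slc1a2, a glutamate carrier of astrocytes and so also on the astrocyte list, at 86.3 ± 67.4 CPM in dopamine libraries, against 23.8 ± 0.542 CPM in the serotonin ones (SD, n = 6 and 2, edgeR adjusted p = 1). In the list of the ATF4 stress response, to which Slc7a11 is often counted, 12 of 16 were positive with a median of 0.43. Phgdh, the first enzyme of serine synthesis, averaged 153.7 ± 77.1 CPM (SD, n = 6) in dopamine and 27.8 ± 1.36 CPM (SD, n = 2) in serotonin libraries, a log2 fold change of 2.61 with an SE of 0.72 (edgeR adjusted p = 0.38, DESeq2 adjusted p = 0.0111), and was higher in 6 of 6 dopamine libraries, where 3.06% of all genes were. Of the pathway genes given an edgeR p for dopamine against serotonin, no other passed with DESeq2. Its adjusted p was 0.173 for Mat2a, 0.222 for Lrp8, 0.102 for Gsta4 and 0.445 for Cat. Vldlr, a reelin receptor on that list, averaged 57.4 ± 26.4 CPM in dopamine libraries, against 15.045 ± 0.210 CPM in the serotonin ones (SD, n = 6 and 2, log2 fold change 2.08 with SE 0.86, edgeR adjusted p = 0.998). Atf4 itself stood at 88.8 CPM in Lateral, 60.5 in Medial, 76.4 and 117.5 in datL and 167.4 and 89.8 in datM, below the 199.8 and 204.2 CPM of the serotonin libraries in each case. Of all genes tested, 8.59% lay below in this way. Of the 16 genes of the ATF4 list, 2 lay above both serotonin libraries in every dopamine library and 2 below (12.5% each).

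Lists around glutathione use and selenium had negative medians. Of 13 tested genes for glutathione recycling and breakdown 10 were negative (median -0.57), and of 14 for selenoprotein synthesis and selenium supply 10 were negative (median -0.74), and 0 genes of either list passed. In the selenium list 5 genes lay below both serotonin libraries in every dopamine library (35.7%, where 8.59% of all genes did) and 2 lay above (14.3%, where 3.06% did), while at an unadjusted p under 0.05 there were 2 higher and 1 lower. Selenok, a selenoprotein of the endoplasmic reticulum, averaged 250.9 ± 67.6 CPM (SD, n = 6) in dopamine and 540.6 ± 51.6 CPM (SD, n = 2) in serotonin libraries, a log2 fold change of -0.98 with an SE of 0.37 (edgeR adjusted p = 0.92). Lrp8, a receptor that takes up the selenium carrier selenoprotein P, averaged 139.9 ± 110.7 CPM in dopamine libraries, against 37.3 ± 9.44 CPM in the serotonin ones (SD, n = 6 and 2, log2 fold change 2.02 with SE 0.78, edgeR adjusted p = 0.94). Hagh, which releases glutathione in the glyoxalase pathway, averaged 24.2 ± 18.9 CPM in dopamine libraries, against 74.4 ± 7.04 CPM in the serotonin ones (SD, n = 6 and 2, edgeR adjusted p = 1).

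The remaining lists had medians from -0.35 to 0.29. Other glutathione peroxidases and transferases had 5 of 14 positive (median -0.10), thioredoxins and peroxiredoxins 7 of 16 (-0.07), superoxide dismutases and catalase 1 of 4 (-0.35), NRF2 regulators 6 of 12 (0.11), NRF2 targets 11 of 17 (0.29) and lipid peroxidation genes 5 of 10 (0.06), and 0 genes of any of them passed. Catalase (Cat) averaged 218.8 ± 86.2 CPM (SD, n = 6) in dopamine and 107.9 ± 19.0 CPM (SD, n = 2) in serotonin libraries, a log2 fold change of 1.16 with an SE of 0.52 (edgeR adjusted p = 1). Tkt, the transketolase of the pentose phosphate pathway, averaged 470.8 ± 157.2 CPM in dopamine libraries, against 214.8 ± 17.95 CPM in the serotonin ones (SD, n = 6 and 2, log2 fold change 1.27 with SE 0.46, edgeR adjusted p = 0.816). Gsta4, a transferase that acts on lipid aldehydes, averaged 35.4 ± 20.1 CPM in dopamine libraries, against 6.03 ± 3.21 CPM in the serotonin ones (SD, n = 6 and 2, log2 fold change 2.69 with SE 1.19, edgeR adjusted p = 1). Gch1, which starts biopterin synthesis, averaged 24.3 ± 28.5 CPM in dopamine libraries, against 184.8 ± 23.6 CPM in the serotonin ones (SD, n = 6 and 2, edgeR adjusted p = 1). Txnip, an inhibitor of thioredoxin, averaged 56.8 ± 43.4 CPM in dopamine libraries, against 16.7 ± 7.80 CPM in the serotonin ones (SD, n = 6 and 2, edgeR adjusted p = 1). Bach2, a repressor at NRF2 sites, averaged 52.6 ± 14.4 CPM in dopamine libraries, against 31.0 ± 6.80 CPM in the serotonin ones (SD, n = 6 and 2, edgeR adjusted p = 1).

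**Figure D4:**
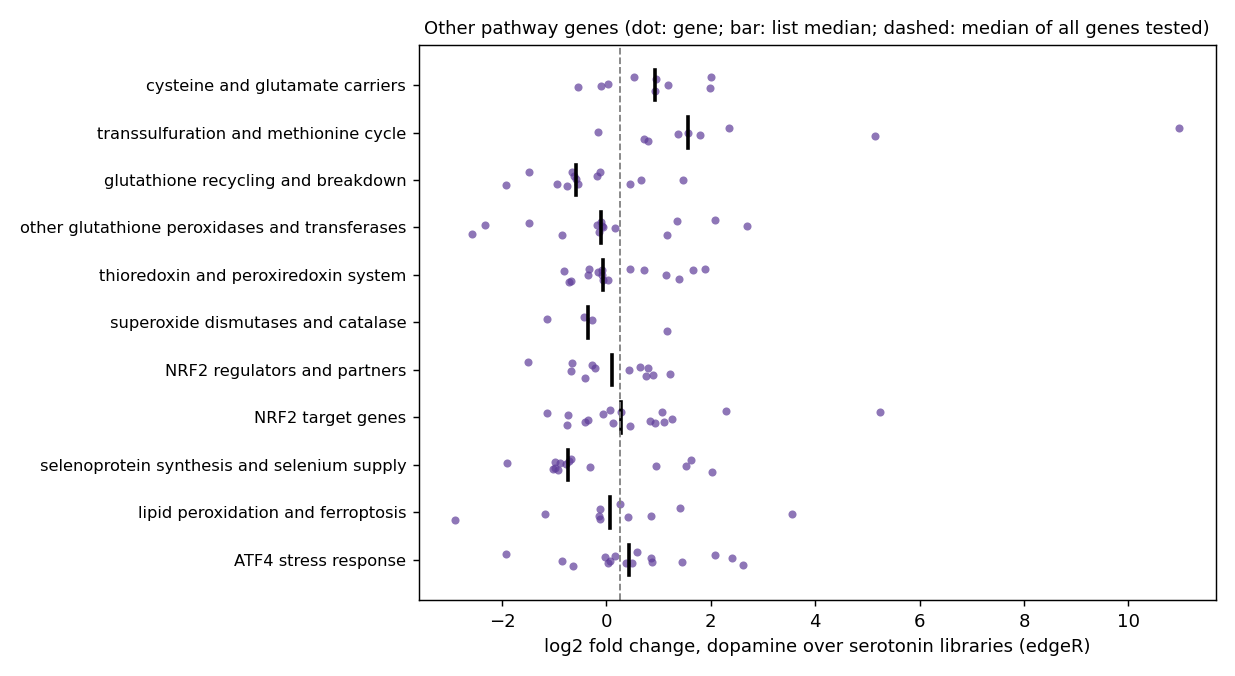
Fitted log2 fold change of dopamine over serotonin libraries (edgeR) for the other pathway genes, by list; each dot is a gene, the bar is the list's median and the dashed line the median of all 13806 genes tested, 0.26. List medians run from -0.74 to 1.55, and the rightmost dot, Cth, had 0 reads in both serotonin libraries, so its fitted value is not a bound.

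Within lane 8, 127 of the pathway genes could be tested for Lateral and Medial against serotonin, and 0 passed 0.05 by edgeR, where 0.0224% of all genes did (0.00746% higher, Aldh1a1, and 0.0149% lower, Slc6a4 and Fev). DESeq2 called 787 genes there and limma-voom 1. At an unadjusted p under 0.05, 18 were higher and 12 lower, where 7.34% and 6.46% of all genes were. Phgdh stood at 138.5 and 115.7 CPM in Lateral and Medial against 28.7 and 26.8 CPM in the serotonin libraries (log2 fold change 2.12 with SE 0.36, edgeR adjusted p = 0.272). Gstm1, a glutathione transferase, stood at 282.8 and 288.8 CPM in Lateral and Medial against 38.1 and 80.9 CPM in the serotonin pair (log2 fold change 2.19 with SE 0.42, edgeR adjusted p = 0.273). Gch1 stood at 38.7 and 74.7 CPM in Lateral and Medial against 201.6 and 168.1 CPM in the serotonin pair (log2 fold change -1.81 with SE 0.39, edgeR adjusted p = 0.273). Rbx1, a ubiquitin ligase subunit that works with KEAP1, stood at 375.8 and 280.4 CPM in Lateral and Medial against 845.3 and 767.7 CPM in the serotonin pair (log2 fold change -1.37 with SE 0.31, edgeR adjusted p = 0.273). Txn2, the mitochondrial thioredoxin, stood at 178.9 and 146.0 CPM in Lateral and Medial against 344.9 and 336.6 CPM in the serotonin pair (log2 fold change -1.14 with SE 0.29, edgeR adjusted p = 0.283). Sod1, the cytosolic superoxide dismutase, stood at 650.6 and 381.0 CPM in Lateral and Medial against 1347 and 1059 CPM in the serotonin pair (log2 fold change -1.29 with SE 0.39, edgeR adjusted p = 0.286). Cbs, the first enzyme of transsulfuration, stood at 82.4 and 34.2 CPM in Lateral and Medial against 5.12 and 10.6 CPM in the serotonin pair (log2 fold change 2.84 with SE 0.75, edgeR adjusted p = 0.286). These 7 genes had the smallest p of their lists, as did Oplah, Slc1a3, Pgd and Pstk. Log2 fold changes of Oplah, Slc1a3, Pgd and Pstk were 2.14, 1.26, 1.14 and -3.97, in that order. Their edgeR adjusted p was 0.314, 0.290, 0.286 and 0.286. Oplah passed under no setting, while Slc1a3, Pgd and Pstk each passed under some other setting. With DESeq2, which called 787 of 13400 genes, these 7 genes passed, at adjusted p of 0.000203 for Phgdh, 0.000196 for Gstm1, 0.00572 for Gch1, 0.00246 for Rbx1, 0.0236 for Txn2, 0.0197 for Sod1 and 0.00563 for Cbs. With limma-voom none of the 7 did, at adjusted p of 0.164 to 0.275.

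Among the dopamine libraries, 0 of 133 tested pathway genes passed by edgeR in either comparison. At an unadjusted p under 0.05, 6 were higher (4.51%, where 3.40% of all genes were) and 4 lower (3.01%, where 3.52% were) in datL than in datM. For Lateral and Medial against datL and datM, 12 were higher (9.02%, where 6.07% were) and 5 lower (3.76%, where 1.46% were). The smallest p in both belonged to Slc1a4, a carrier of neutral amino acids including cysteine. It stood at 51.7 CPM in Lateral and 124.6 in Medial, at 27.1 and 32.4 CPM in datL, and at 0.330 and 0.374 CPM in datM, beside 29.3 and 27.1 CPM in the serotonin libraries. The datL libraries lay close together, and so did the datM libraries (log2 fold change of datL over datM 6.46, SE 1.34, edgeR adjusted p = 0.597; DESeq2 called it).

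Over the 8 libraries, the genes whose log2 CPM followed Slc7a11 most closely among 10096 genes with a mean of at least 5 CPM were Tuba1c, Birc6, Gcc2, Oat and Kmt2d, with Pearson's r of 0.990, 0.948, 0.944, 0.937 and 0.933. The points share libraries and depth, and the contrast between dopamine and serotonin libraries enters each r, so these are descriptions. Tuba1c, an alpha tubulin with near-identical family members that counting may not separate, stood at 76.8 CPM in Lateral, 24.8 in Medial, 98.1 and 37.8 in datL and 121.5 and 52.0 in datM, against 1.83 and 2.92 CPM in the serotonin libraries. Its dopamine libraries fell in nearly the same order as those of Slc7a11. Oat, an enzyme of ornithine and glutamate metabolism, averaged 288.3 CPM in dopamine libraries, against 81.0 CPM in serotonin libraries.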

How the data were processed

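Reads were aligned with STAR to mm10, per the submitters' processing notes. The deposited values are raw read counts per gene, 1 table per library, made by the authors with featureCounts 1.4.3-p1 and GENCODE vM2 with strand ignored, per the file headers. The labels' protocols give long-distance PCR of the cDNA, 10 further PCR cycles and single reads of 100 bp. By identifier, 37607 of 38924 genes had a symbol.

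CPM was computed from library totals (22417739 to 33216710 counts) and TPM from counts and the tables' gene lengths. Genes were tested with edgeR 4.0.16 in R 4.3.3 (quasi-likelihood, TMM factors, default expression filter, two-sided, Benjamini-Hochberg adjustment over all genes tested, threshold 0.05). DatL with datM, and Lateral and Medial with datL and datM, were compared in a fit of 5 groups, dopamine with serotonin as 6 libraries against 2, and lane 8 with 2 against 2. Standard errors were derived from the fold change and test statistic. Scripts were run on counts simulated with the same spread for every gene, which do not copy the 0 counts found between paired libraries. Alternatives were RLE factors, library totals, DESeq2 1.42.0, limma-voom (limma 3.58.1), other filters, a replicate block, other groupings, and leaving out each library. Limits for 0 reads take 3 counts. P-values reflect the spread between libraries alone, and that spread may be technical.

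The members and lists were chosen with earlier results of these data known. All 10 members are named; of each list, the gene with the smallest p between dopamine and serotonin, a second where its unadjusted p was under 0.05 (a limit set after values were seen), and in each other comparison 1 gene a list with the smallest p was eligible, of which some are named. Atf4 was chosen after their values were seen.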

Additional observations from a re-analysis of the deposited data

How the results depend on the processing

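The numbers of genes called depended on the tool. For datL against datM, 0 in edgeR became 1609 with DESeq2 and 243 with limma-voom, and 0 to 6 when each library was left out (6 without either serotonin library). For Lateral and Medial against datL and datM, 1 became 907 with DESeq2, 0 with limma-voom, 2 without a filter, with 3 groups and with the replicate block, and 0 to 6 with each library left out (6 without serotonin replicate 1, 5 without serotonin replicate 2). For dopamine against serotonin, 0 became 124 with DESeq2, 14 with limma-voom, 3 at a mean of at least 5 CPM, 2 with 5 groups, and 0 to 1 with each library left out (1 without datL replicate 1). Within lane 8, 3 became 787 with DESeq2, 1 with limma-voom, 7 without a filter, 5 at a mean of at least 5 CPM, and 13 without serotonin replicate 1 to 2453 without Lateral. The cause was not tested. Where 1 library remained in a group, it was assumed to vary like the other groups. Leaving aside Hmox1 and Nqo1, no member passed in either comparison of dopamine libraries under any setting. For Hmox1 and Nqo1 the other settings are not given, since no fold is reported against libraries at 0. Hmox1 had the smallest unadjusted edgeR p of the members in both comparisons (0.0459 and 0.0582). Whether it or Nqo1 passes with another tool is therefore not shown.

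Fold changes of members changed sign, small and large ones alike. For datL against datM, Slc7a11 (0.0055) gave -0.033 with RLE factors and with DESeq2, -0.081 with library totals, -0.064 with limma-voom and -0.014 without a filter, and Slc3a2 (-1.63) gave 3.13 with limma-voom. For Lateral and Medial against datL and datM, Gpx1 gave 0.15 with library totals and 0.088 with limma-voom, and Nfe2l2 gave 0.10 with library totals, 1.23 with limma-voom and 3.23 with the replicate block. Leaving out each library gave, for datL against datM, -1.06 to 1.14 for Slc7a11, -2.66 to 11.05 for Slc3a2, -1.81 to 0.51 for Gclc, -8.18 to 1.59 for Gclm, -0.46 to 0.70 for Gss, -0.85 to 0.49 for Gpx1 and -0.64 to 1.44 for Gpx4. For Lateral and Medial against datL and datM it gave -0.63 to 3.28 for Gclm, -1.34 to 0.31 for Gss, -0.48 to 0.38 for Gpx1, -0.68 to 0.35 for Gpx4 and -0.56 to 3.04 for Nfe2l2.

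Same-numbered libraries of datL, datM and serotonin deviated from their group means with correlations of 0.0982, 0.016 and -0.00372 over 15177 genes, so the numbers were not taken as pairs. The replicate block left 0 calls for datL against datM and for dopamine against serotonin. Hmox1, Nqo1, Gclm, Nfe2l2 and Slc3a2 are limited by libraries with 0 to 4 reads.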

Other observations

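The libraries numbered 1 and 2 of datL and datM differed in the same direction at every member with reads to compare. Slc7a11 was 3.07 times as high in library 1 as in library 2 of datL and 3.32 times in datM, Gpx4 3.92 and 2.31 times, Gpx1 2.35 and 1.91 times, and Gss 2.21 and 1.69 times. Gclc stood at 0.1998 and 0.623 times, Gclm at 0.00628 and 0.0425 times, and Nfe2l2 at 0.661 and 0.00613 times. Slc3a2 was higher in library 1 of both pairs as well. The direction was shared at 8 of 8 members, where it was shared at 58.1% of 11653 genes tested and at 68 of 114 other pathway genes. The red blood cell markers stood at 753.8 CPM in library 1 and 218.1 in library 2 of datL, and at 750.5 and 278.5 CPM in datM. Their part in the shared direction was not tested. This pattern was seen after the values were known.

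The nearest genes on either side of Slc7a11 on chromosome 3 with at least 100 reads in all did not share its contrast. They do not adjoin it: Pcdh18 lies at 49743296 to 49757316 and Noct at 51224447 to 51251644. Pcdh18, a protocadherin, stood at 26.6 CPM in Lateral, 35.0 in Medial, 66.6 and 12.6 in datL and 0.110 and 7.28 in datM, against 5.16 and 19.9 CPM in the serotonin libraries. Noct, on the other side, stood at 59.5 and 37.5 CPM in Lateral and Medial, 18.5 and 66.3 in datL and 30.6 and 73.6 in datM, against 36.7 and 37.2 CPM in the serotonin libraries. No exon base of Slc7a11 is shared with another gene of the tables. These genes were chosen after their values were seen.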
